A study of Homo sapiens with 6 samples.

Results

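Cell surface antigens of Ewing sarcoma were followed in TC32 cells, an established Ewing sarcoma line, after knockdown with siRNAs against EWSR1 or FLI1. The 10 genes, CD99, STEAP1, STEAP2, ADGRG2, L1CAM, NGFR, CD34, IL1RAP, LINGO1 and MCAM, were taken by symbol, and 10 of 10 were found among the 26931 gene symbols of the deposited tables. Total RNA was sequenced 48 h after transfection in 3 groups of 2 libraries: cells transfected with an siRNA to EWSR1 (siEWSR1), with an siRNA to FLI1 (siFLI1), or with the control siRNA (siNeg). All 6 libraries come from the same line, and the labels name replicates without saying whether these were separate cultures, so p-values measure the spread between these libraries, which may be technical. The labels do not give the siRNA sequences or the exons they target.

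Ewing sarcoma cells carry a fusion of EWSR1 with an ETS family gene, most often FLI1, whose product is a transcription factor that binds the ETS core GGAA and, in particular, stretches of repeated GGAA. Proteins on the surface of these cells are used to recognise the tumour in the clinic, CD99 foremost, and several are studied as targets for antibodies or engineered T cells. The genes described here cover metalloreductases (STEAP1, STEAP2), an orphan adhesion receptor (ADGRG2), a cytokine co-receptor (IL1RAP), the diagnostic antigen CD99, proteins of neural cells (L1CAM, NGFR, LINGO1) and proteins of vascular and progenitor cells (CD34, MCAM).

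The deposited values are FPKM, in which fragments are divided by the length of the transcript and the size of the library, a level per length that can be set side by side between genes. The fragment totals that the deposited intervals imply were 15159073 to 16298374 per library, and 12079 to 12741 genes reached 1 FPKM. EWSR1 was at 34.6 and 32.3 FPKM in the siEWSR1 libraries, 51.2 and 50.2 in the siFLI1 libraries and 46.5 and 47.2 in the siNeg libraries. FLI1 was at 10.4 and 10.6 FPKM with siEWSR1, 8.98 and 8.56 with siFLI1 and 10.9 and 10.9 with siNeg. A gene-level value adds the normal transcript to any fusion transcript, so it does not show how far the fusion itself fell. All 17 tested genes of an 18-gene list of Ewing sarcoma markers, which holds CD99, STEAP1, EWSR1 and FLI1, were at or above 1 FPKM in siNeg cells. Of those, 16 fell with siEWSR1 and 14 with siFLI1, where 31.0% and 29.6% of all tested genes fell. Each count includes the target of the siRNA itself, EWSR1 or FLI1. With quantile normalization 14 fell with each siRNA, and 1 rose with siFLI1. The summed level of the list was 997 to 1139 FPKM with siEWSR1, 1044 to 1095 with siFLI1 and 1889 to 1926 with siNeg. Over the same libraries the 11-gene fibroblast and stromal list summed to 852 to 922 FPKM with siEWSR1, 1007 to 1087 with siFLI1 and 206 to 212 with siNeg, with 6 of 7 tested genes higher and 1 lower with each siRNA. Among all tested genes 33.2% rose with siEWSR1 and 35.7% with siFLI1. The siNeg mean reached 1 FPKM for 6 of those 7 genes, and PDGFRA passed the filter through the knockdown groups and had to be higher. FAP and LUM of that list were at 0 in both siNeg libraries. A 9-gene epithelial list summed to 49.1 to 52.2 FPKM with siEWSR1, 87.1 to 87.3 with siFLI1 and 23.8 to 25.3 with siNeg, with 4 of 5 tested genes higher and 1 lower with each siRNA. The siNeg mean reached 1 FPKM for 2 of those 5 genes, and the others (KRT14, KRT15 and CLDN4) passed the filter through the knockdown groups and had to be higher. KRT19 of that list was at 0 in both siNeg libraries. The part of these shifts in the surface genes was not tested. In bulk RNA, fewer cells of a type and less RNA per cell cannot be told apart.

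The surface genes divided by direction, and each gene went the same way with both siRNAs wherever both changes passed the test. STEAP1, STEAP2, ADGRG2 and IL1RAP were lower and L1CAM, NGFR, CD34 and LINGO1 were higher with either siRNA, CD99 was lower with siEWSR1, and MCAM passed in neither comparison. Changes were tested with limma on log2(FPKM + 0.5) over 13043 genes with at least 1 FPKM in at least 2 libraries, at a Benjamini-Hochberg adjusted p under 0.05. Of the 10 genes, 4 rose and 5 fell with siEWSR1 against siNeg, where 33.2% of all tested genes rose and 31.0% fell. With siFLI1 against siNeg, 4 rose and 4 fell, where 35.7% of all tested genes rose and 29.6% fell. With 10 genes, these shares of called genes are not far from the background. The median absolute log2 change was 0.99 with siEWSR1 and 1.09 with siFLI1, and 0.35 and 0.35 over all tested genes. The median signed change was -0.10 with siEWSR1 and 0.04 with siFLI1, against 0.01 and 0.04 over all tested genes. Both siRNA groups were set against the same 2 siNeg libraries, so their changes share that error. All 10 genes passed the filter, but L1CAM and CD34 reached 1 FPKM in the knockdown groups alone, in 0 of 2 siNeg libraries, so these genes had to differ. The counts and medians over the 10 genes include both and are a description.

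**Figure D1:**
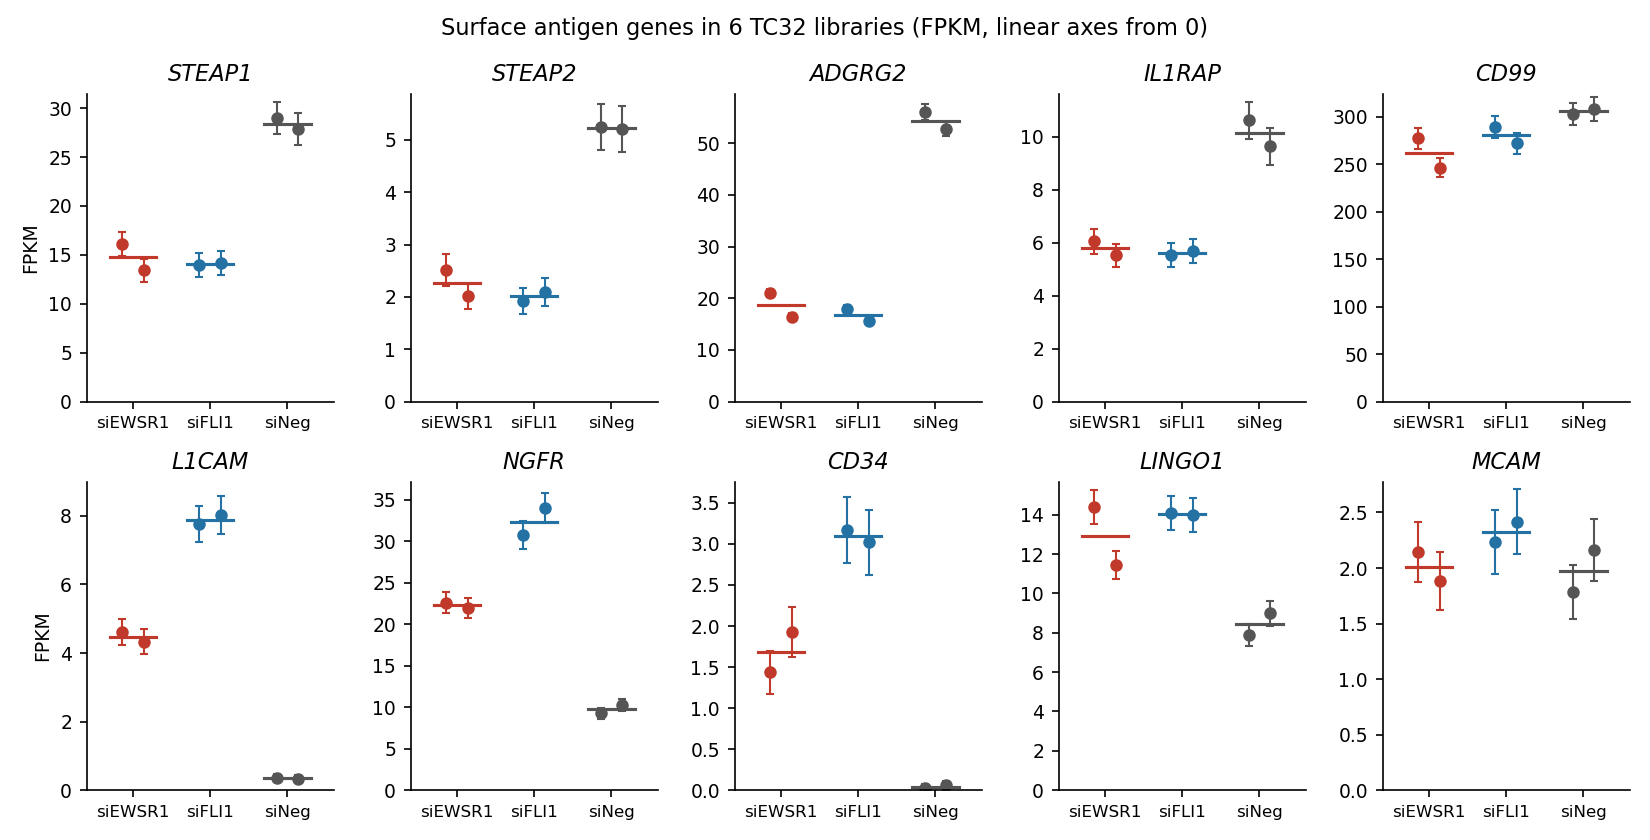
FPKM of each surface gene (vertical axes, linear, from 0) in the 2 libraries of each group; points are libraries, vertical bars the deposited lower and upper bounds, horizontal lines group means. STEAP1, STEAP2, ADGRG2 and IL1RAP are highest in both siNeg libraries, L1CAM, NGFR, CD34 and LINGO1 are lowest there, and CD99 and MCAM differ by less than the others.

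In siNeg cells the levels ran, from high to low, CD99 (306 ± 3.61 FPKM, SD, n = 2), ADGRG2 (54.3 ± 2.30), STEAP1 (28.4 ± 0.751), IL1RAP (10.1 ± 0.692), NGFR (9.75 ± 0.709), LINGO1 (8.43 ± 0.788), STEAP2 (5.23 ± 0.023), MCAM (1.97 ± 0.269), L1CAM (0.352 ± 0.0195) and CD34 (0.0443 ± 0.0179). IL1RAP and NGFR overlapped between libraries in that order, and no other neighbours did. CD99 stood at the 98.8th percentile of tested genes and CD34 at the 0.69th. The order changed in the knockdown cells: NGFR was next below CD99 in both, at 22.3 ± 0.466 FPKM with siEWSR1 and 32.3 ± 2.30 with siFLI1 (SD, n = 2 each), above ADGRG2 in every knockdown library. LINGO1 and STEAP1 overlapped in both knockdown groups, and with siEWSR1 MCAM overlapped both STEAP2 and CD34. With siFLI1, L1CAM stood above IL1RAP and CD34 stood above MCAM and STEAP2.

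STEAP1 and STEAP2 encode membrane proteins of a metalloreductase family. STEAP2 reduces iron and copper, while STEAP1 lacks the cytoplasmic reductase domain of its relatives. The genes lie head to tail on chromosome 7, at chr7:89783689-89794141 (STEAP1) and chr7:89841000-89866992 (STEAP2) of hg19, 46859 bp apart. Their promoter windows, 250 bases before to 50 bases after the annotated start on the gene's strand, are shown because both genes fell together. They come from RefSeq on GRCh38.p14, at chr7:90154219-90154518 and chr7:90211490-90211789 on the plus strand, written 5′ to 3′ with the ETS core (GGAA, or TTCC where it lies on the other strand) in capitals.
STEAP1: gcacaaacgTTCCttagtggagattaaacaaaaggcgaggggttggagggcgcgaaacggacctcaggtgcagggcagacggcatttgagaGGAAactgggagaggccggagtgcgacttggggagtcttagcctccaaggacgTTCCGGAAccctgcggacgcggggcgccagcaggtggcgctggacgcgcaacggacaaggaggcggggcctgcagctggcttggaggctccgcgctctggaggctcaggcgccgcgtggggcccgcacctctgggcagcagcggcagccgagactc
STEAP2: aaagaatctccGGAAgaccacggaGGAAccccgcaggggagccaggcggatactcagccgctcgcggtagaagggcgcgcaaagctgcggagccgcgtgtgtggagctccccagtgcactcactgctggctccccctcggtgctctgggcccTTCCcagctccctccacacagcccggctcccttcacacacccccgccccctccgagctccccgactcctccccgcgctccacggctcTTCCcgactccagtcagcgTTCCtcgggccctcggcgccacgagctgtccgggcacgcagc
The STEAP1 window holds 4 ETS cores and the STEAP2 window 5, where 95.5% of 35093 RefSeq windows of 300 bases hold at least 1 and the median is 3. Neither window holds the direct repeat GGAAGGAA, found in 3.67% of windows, on either strand. The longer ETS sequence CCGGAAG is in the STEAP2 window and in 10.3% of all windows. Each of these longer sequences contains the core, and a match describes the letters only.

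STEAP1 was at 16.1 and 13.4 FPKM with siEWSR1, 13.99 and 14.2 with siFLI1 and 28.9 and 27.9 with siNeg. Every knockdown library lay below both siNeg libraries. The change was -0.92 ± 0.09 (log2, SE) with siEWSR1, a 1.90-fold reduction (limma adjusted p = 0.000213), and -0.99 ± 0.09 with siFLI1, a 1.98-fold reduction (adjusted p = 0.000143). STEAP2 was lower in level but moved alike, at 2.52 and 2.01 FPKM with siEWSR1, 1.93 and 2.10 with siFLI1 and 5.25 and 5.21 with siNeg. The groups again did not overlap with siNeg. Its change was -1.06 ± 0.10 with siEWSR1 (limma adjusted p = 0.000246) and -1.19 ± 0.10 with siFLI1 (adjusted p = 0.000132). The ratio of STEAP1 to STEAP2 FPKM was 6.42 and 6.67 with siEWSR1, 7.26 and 6.77 with siFLI1 and 5.52 and 5.35 with siNeg. STEAP1B, a near-identical copy of STEAP1 with which reads could be shared, averaged 6.82 ± 0.71 FPKM with siEWSR1, 5.94 ± 0.25 with siFLI1 and 11.6 ± 0.57 with siNeg (SD, n = 2 each), and fell with both (log2 change -0.73 and -0.91, limma adjusted p = 0.000517 and 0.00018). STEAP1 also overlaps the antisense gene STEAP2-AS1, which did not exceed 0.136 FPKM.

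Of 13 tested genes for STEAP family members and cellular iron handling, 5 rose, 3 fell and 5 were not called with siEWSR1, and 8 rose, 3 fell and 2 were not called with siFLI1, with median log2 changes of 0.18 and 0.27. HMOX1, the haem-degrading enzyme that releases iron, reached 9.15 FPKM with siEWSR1 and 11.8 with siFLI1, against 2.43 with siNeg (log2 change 1.72 and 2.06). SLC40A1, the iron exporter ferroportin, rose by 1.17 and 1.10, at 1.47 FPKM with siEWSR1, 1.37 with siFLI1 and 0.372 with siNeg. It passed the filter through the knockdown groups alone, and its change was as low as 0.58 with siEWSR1 and 0.46 with siFLI1 over the alternatives. SLC39A14, an importer of iron and zinc, fell with both siRNAs, at 10.6, 10.4 and 16.6 FPKM in siEWSR1, siFLI1 and siNeg cells.

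ADGRG2, an adhesion G protein-coupled receptor known from the epididymis, had the largest reduction of the 10 genes with either siRNA. It was at 21.1 and 16.4 FPKM with siEWSR1, 17.99 and 15.7 with siFLI1 and 56.0 and 52.7 with siNeg, with no overlap between knockdown and control. The log2 change was -1.52 ± 0.12 with siEWSR1 (2.87-fold lower, limma adjusted p = 0.000114) and -1.67 ± 0.12 with siFLI1 (3.17-fold lower, adjusted p = 6.98e-05), and 94.99% and 95.02% of tested genes changed less. The gene lies on chrX:19007425-19140755 (hg19) and overlaps no other listed gene. All 3 tested genes that start or end within 250 kb of it fell as well with both siRNAs. Over all tested genes 31.0% fell with siEWSR1 and 29.6% with siFLI1. PHKA2, a phosphorylase kinase subunit, was at 19.8 FPKM with siEWSR1, 18.5 with siFLI1 and 33.03 with siNeg, and the log2 change with siEWSR1 was -0.73. PDHA1, a pyruvate dehydrogenase subunit, changed by -0.52 and the kinase gene MAP3K15 by -1.04 with siEWSR1. MAP3K15 averaged 0.707 FPKM with siEWSR1, 0.658 with siFLI1 and 1.98 with siNeg. Its knockdown means were below the filter level of 1 FPKM, so the filter favoured a fall of this gene.
Of 9 other adhesion receptors tested among 21, 6 rose, 1 fell and 2 were not called with each siRNA, with median changes of 0.43 with siEWSR1 and 0.45 with siFLI1, and 8 of the 9 reached 1 FPKM in siNeg. With quantile normalization 4 rose and 1 fell with siEWSR1 (median 0.03), and 5 rose and 2 fell with siFLI1 (median 0.39). ADGRC2, listed as CELSR2, a planar polarity cadherin, was at 13.2 FPKM with siEWSR1, 13.1 with siFLI1 and 6.81 with siNeg. ADGRL1, a latrophilin, rose by 0.69 and 0.45, and ADGRG6, which myelinating Schwann cells need, rose by 0.43 and 0.91, the change with siEWSR1 being 0.02 and no longer called under quantile normalization. ADGRE5, the leukocyte antigen CD97, fell by 0.33 on the log2 scale with either siRNA.

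IL1RAP is the accessory chain that completes the receptors for interleukin 1 and interleukin 33. It was at 6.05 and 5.53 FPKM with siEWSR1, 5.52 and 5.69 with siFLI1 and 10.6 and 9.63 with siNeg, with no overlap between knockdown and control. The log2 change was -0.76 ± 0.08 with siEWSR1 (limma adjusted p = 0.000265) and -0.80 ± 0.08 with siFLI1 (adjusted p = 0.000188), 1.69-fold and 1.74-fold lower. The list for interleukin 1 and interleukin 33 signalling also held SLC7A11, a transporter gene. Among its 12 tested genes, 6 rose, 3 fell (SLC7A11 included) and 3 were not called with each siRNA, with medians of 0.22 with siEWSR1 and 0.21 with siFLI1. The primary receptor chain IL1R1 was at 1.48 FPKM with siEWSR1, 2.09 with siFLI1 and 0.38 with siNeg (log2 change 1.17 and 1.55). IL1R1 and IRAK2 reached 1 FPKM in the knockdown groups alone and had to differ, and the other 10 tested genes reached it in siNeg. IRAK2, a kinase of the pathway, rose by 1.02 and 1.21, and under quantile normalization its siEWSR1 change was 0.24 and not called. The cytokine IL33 fell to 8.68 FPKM with siEWSR1 and 7.95 with siFLI1, against 11.8 with siNeg. SLC7A11, the cystine transporter, fell to 15.6 FPKM with siEWSR1 and 15.8 with siFLI1, against 33.7 with siNeg.

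CD99, the membrane glycoprotein by which pathologists recognise Ewing sarcoma, made up 71.6% to 75.7% of the summed FPKM of the 10 genes in each library. It was at 277.2 and 246.4 FPKM with siEWSR1, 289.1 and 272.2 with siFLI1 and 303.1 and 308.3 with siNeg. Both knockdown groups lay below siNeg and overlapped each other. The log2 change was -0.23 ± 0.07 with siEWSR1 (limma adjusted p = 0.0284) and -0.12 with siFLI1, which was not called (95% interval -0.29 to 0.05, adjusted p = 0.163). Its rank among tested genes hardly moved, 154th from the top with siEWSR1, 157th with siFLI1 and 156th with siNeg. The siEWSR1 call ended with no filter on low values (limma adjusted p = 0.0661), under quantile normalization (log2 change 0.0014), and without siNeg replicate 1 (0.0871), siNeg replicate 2 (0.112) or siEWSR1 replicate 2 (0.101). CD99 lies in the pseudoautosomal region, its row at chrX:2609174-2659350 (hg19), and reads could be shared with the pseudogene CD99P1.
In the CD99 family and its ligands, 8 genes were tested: 3 rose, 2 fell and 3 were not called with siEWSR1, and 2 rose, 2 fell and 4 were not called with siFLI1. The medians were 0.11 and 0.05, and the siFLI1 median was -0.15 under quantile normalization. CD99L2, the paralogue on leukocytes and endothelium, rose to 31.6 FPKM with siEWSR1 and 36.1 with siFLI1, against 24.2 with siNeg. XG, the blood group gene next to CD99, was at 7.34 FPKM with siEWSR1, 8.46 with siFLI1 and 9.18 with siNeg, with a called change with siEWSR1 (-0.30) and one with siFLI1 (-0.11) that was called only under quantile normalization (-0.18, limma adjusted p = 0.039), and the siRNAs did not pass the test against each other (limma adjusted p = 0.127). RDX, the membrane linker radixin, fell to 54.4 FPKM with siEWSR1 and 50.2 with siFLI1, against 77.8 with siNeg. PILRA, an inhibitory receptor that binds CD99, rose with siEWSR1 (0.77), a call that ended under quantile normalization (0.17). Over the alternatives that change ran up to 1.15. Of the 8 tested genes, 7 averaged at least 1 FPKM in siNeg, and the other passed the filter through the knockdown groups.

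L1CAM, an immunoglobulin-family adhesion molecule that guides axons, lies at chrX:153126969-153151628 (hg19). Its first RefSeq window (GRCh38.p14, chrX:153875895-153876194, minus strand) and that of CD34 (GRCh38.p14, chr1:207911076-207911375, minus strand) are shown because these genes had the largest increases of the set, with the ETS core in capitals on the gene's strand.
L1CAM: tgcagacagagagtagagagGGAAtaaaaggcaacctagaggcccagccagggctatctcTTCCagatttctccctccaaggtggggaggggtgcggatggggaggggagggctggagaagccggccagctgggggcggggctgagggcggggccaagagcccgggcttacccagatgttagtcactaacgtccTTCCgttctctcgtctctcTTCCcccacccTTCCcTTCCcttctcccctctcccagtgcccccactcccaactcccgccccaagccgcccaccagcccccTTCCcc
CD34: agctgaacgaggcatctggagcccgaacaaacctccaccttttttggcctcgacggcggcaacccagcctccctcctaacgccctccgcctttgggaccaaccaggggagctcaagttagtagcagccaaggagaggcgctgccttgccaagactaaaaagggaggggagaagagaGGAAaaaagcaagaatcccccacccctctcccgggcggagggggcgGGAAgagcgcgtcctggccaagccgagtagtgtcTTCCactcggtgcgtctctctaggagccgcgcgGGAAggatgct
The L1CAM window holds 7 ETS cores and the CD34 window 4, both at or above the median of 3 for all windows, and neither holds GGAAGGAA or CCGGAAG. Across the 9 genes with a RefSeq window, 19 windows in all, none held GGAAGGAA and 2 genes, STEAP2 and LINGO1, held CCGGAAG. It was in STEAP2 window 1 and LINGO1 window 6, and in no other window of either gene. The background share of 10.3% counts windows, not genes.

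L1CAM was at 4.61 and 4.34 FPKM with siEWSR1, 7.76 and 8.03 with siFLI1 and 0.366 and 0.338 with siNeg. The groups did not overlap, and the siFLI1 libraries were the highest. The log2 change was 2.55 ± 0.08 with siEWSR1 (limma adjusted p = 4.39e-06) and 3.30 ± 0.08 with siFLI1 (adjusted p = 1.49e-06), larger in absolute size than those of 98.8% and 99.3% of tested genes. L1CAM reached 1 FPKM in 0 of 2 siNeg libraries and passed the filter through the knockdown groups. It therefore had to differ, and its p-values and place among tested genes are a description. On the FPKM scale without the added 0.5 the group means differed 12.7-fold and 22.4-fold, since the pseudocount shrinks the change of a gene that is low in siNeg. Over the alternatives the log2 change ran from 1.99 to 3.34 with siEWSR1 and from 2.72 to 4.15 with siFLI1. L1CAM overlaps LCA10, which did not exceed 0.024 FPKM.
Of 11 tested genes among the L1 family and its binding partners, 4 rose, 4 fell and 3 were not called with siEWSR1, and 3 rose, 3 fell and 5 were not called with siFLI1 (medians 0.10 and 0.15). NRP1, a semaphorin co-receptor that binds L1CAM, rose most, to 13.2 FPKM with siEWSR1 and 16.0 with siFLI1, against 1.28 with siNeg (log2 change 2.95 and 3.21). The integrin subunit ITGAV reached 11.9 FPKM with siEWSR1 and 14.8 with siFLI1, against 9.60 with siNeg, and its siEWSR1 call ended without either siNeg library or without siEWSR1 replicate 2. ALCAM, an adhesion molecule that binds L1CAM, fell to 35.0 FPKM with siEWSR1 and 32.1 with siFLI1, against 69.5 with siNeg. The L1 family member NRCAM fell by 0.43 with siEWSR1, a call that ended without siNeg replicate 1, and by 0.57 with siFLI1.

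NGFR, the p75 neurotrophin receptor of neural crest derivatives, was at 22.6 and 21.9 FPKM with siEWSR1, 30.7 and 33.98 with siFLI1 and 9.25 and 10.3 with siNeg. No groups overlapped. The log2 change was 1.15 ± 0.08 with siEWSR1 (limma adjusted p = 5.02e-05) and 1.68 ± 0.08 with siFLI1 (adjusted p = 1.10e-05), 2.22-fold and 3.20-fold higher. The row, at chr17:47572655-47592382 (hg19), overlaps LOC100288866, which reached at most 0.696 FPKM.
Among 8 tested genes for neurotrophins and their receptors, 3 rose, 3 fell and 2 were not called with siEWSR1, and 3 rose, 2 fell and 3 were not called with siFLI1 (medians 0.07 and 0.10). SORT1, the sortilin that pairs with NGFR for proneurotrophins, rose to 4.997 FPKM with siEWSR1 and 4.65 with siFLI1, against 3.19 with siNeg. NTRK2, the BDNF receptor, fell to 5.88 FPKM with siEWSR1 and 5.44 with siFLI1, against 15.1 with siNeg (log2 change -1.29 and -1.39). Schwann and neural crest markers summed to 37.9 to 39.5 FPKM with siEWSR1, 35.0 to 39.1 with siFLI1 and 22.5 to 23.2 with siNeg, 2 of 3 tested genes rose with each siRNA, and the part of that list in the NGFR change was not tested.

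LINGO1, a leucine-rich repeat protein that joins NGFR and the Nogo receptor in the complex that limits axon growth, was at 14.4 and 11.4 FPKM with siEWSR1, 14.1 and 13.97 with siFLI1 and 7.87 and 8.99 with siNeg. Every knockdown library lay above both siNeg libraries. The log2 change was 0.58 ± 0.12 with siEWSR1 (limma adjusted p = 0.00473) and 0.70 ± 0.12 with siFLI1 (adjusted p = 0.00201), 1.496-fold and 1.63-fold higher. The row at chr15:77905366-78113242 (hg19) overlaps the antisense genes LINGO1-AS1 and LINGO1-AS2, each at or below 0.108 FPKM. Within 250 kb, TBC1D2B, a gene for a Rab-regulating protein, and PEAK1, a pseudokinase gene, also rose with both siRNAs, by 0.50 and 0.62 with siEWSR1, and the third tested gene was not called. Over all tested genes 33.2% rose with siEWSR1 and 35.7% with siFLI1. Neighbours of some other surface genes went both ways. With siEWSR1, 6 of 15 rose and 4 fell near L1CAM, and 2 of 5 rose and 1 fell near NGFR. Near MCAM 3 of 12 rose and 5 fell, and near CD99 2 of 6 rose and 3 fell. Near STEAP1 and near STEAP2, each counting the other, 0 of 3 rose and 2 fell, and near IL1RAP the 1 tested gene fell.
Of 12 other genes of the Nogo receptor complex and LINGO family 4 were tested, with medians of -0.12 with siEWSR1 and 0.02 with siFLI1. With siEWSR1 0 rose and 1 fell, and with siFLI1 0 were called by limma, also at an unadjusted p under 0.05, while 1 rose and 1 fell under quantile normalization and 1 fell under median-of-ratios scaling. RTN4, the Nogo ligand itself, was at 84.8 FPKM with siEWSR1, 113 with siFLI1 and 100.3 with siNeg, the siEWSR1 change of -0.24 being called (limma adjusted p = 0.0263). That call ended with no filter on low values, under quantile normalization, and without siNeg replicate 1 or siEWSR1 replicate 1. Its siFLI1 change was called under quantile normalization (0.29, limma adjusted p = 0.0144). Its difference between the siRNAs was called (-0.41, limma adjusted p = 0.0389) and ended in 11 of 17 alternatives.

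CD34, a sialomucin of blood progenitors and endothelium, was at 1.44 and 1.93 FPKM with siEWSR1, 3.17 and 3.02 with siFLI1 and 0.0317 and 0.0570 with siNeg, where the deposited lower bounds were 0. No groups overlapped. The log2 change on the scale with 0.5 added was 1.99 ± 0.13 with siEWSR1 (limma adjusted p = 5.16e-05) and 2.72 ± 0.13 with siFLI1 (adjusted p = 1.38e-05). Its size moved with the pseudocount and the scaling, from 1.27 to 3.62 with siEWSR1 and from 1.97 to 4.47 with siFLI1 over the alternatives. CD34 reached 1 FPKM in the knockdown groups alone, so it had to differ and its p-values are a description. It is at chr1:208059883-208084683 (hg19), overlapping no listed gene. PLXNA2, a semaphorin receptor gene 110905 bp away, was at 3.06 FPKM with siEWSR1, 2.64 with siFLI1 and 0.381 with siNeg, and CD46, the other tested neighbour, was not called. PLXNA2 passed the filter through the knockdown groups alone and had to be higher there.
Markers of endothelial and blood cells, which normally carry CD34, were measured in the same libraries, and their part in the CD34 change was not tested. Of 10 endothelial markers 1 was tested (EGFL7, called lower with siEWSR1 at -0.40 and not with siFLI1 at -0.06). The siEWSR1 call of EGFL7 ended under quantile normalization (-0.33). VWF was at 0 in all siEWSR1 and siNeg libraries, and PECAM1 averaged 0.0916 FPKM with siEWSR1, 0.0628 with siFLI1 and 0.187 with siNeg. CDH5, vascular cadherin, averaged 0.199, 0.253 and 0.00646 FPKM in siEWSR1, siFLI1 and siNeg cells. The summed endothelial list, of which only EGFL7 passed the filter, was 18.4 to 24.6 FPKM with siEWSR1, 25.5 to 27.4 with siFLI1 and 25.3 to 27.2 with siNeg. Of 10 blood markers 0 were tested, and CD3E and HBB were at 0 in every library, with sums of 0.943 to 1.05 FPKM with siEWSR1, 0.890 to 0.972 with siFLI1 and 0.762 to 0.929 with siNeg. In the CD34 family list 3 of 7 genes were tested. The relative PODXL was at 5.59 FPKM with siEWSR1, 6.22 with siFLI1 and 4.94 with siNeg, and its siFLI1 change was called (0.30, limma adjusted p = 0.00504) and its siEWSR1 change was not (0.16, adjusted p = 0.0575), although it was under median-of-ratios scaling (0.18, adjusted p = 0.0369) and with no variance trend (adjusted p = 0.0492). The siRNAs did not pass the test against each other for PODXL (-0.14, limma adjusted p = 0.228). In the same list, the adaptor CRKL, which binds the CD34 tail, fell by 0.60 with siEWSR1 and 0.53 with siFLI1.

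MCAM, the adhesion molecule CD146 of endothelium and melanoma, was not called. It was at 2.14 and 1.88 FPKM with siEWSR1, 2.23 and 2.42 with siFLI1 and 1.78 and 2.16 with siNeg. The siEWSR1 and siNeg libraries overlapped. The 95% interval of the log2 change was -0.24 to 0.29 with siEWSR1 (limma adjusted p = 0.846) and -0.07 to 0.46 with siFLI1 (adjusted p = 0.160), so changes within those bounds are not separated from none. Its row, at chr11:119179234-119187840 (hg19), overlaps MIR6756, listed at 0.
Most ligands of MCAM and related adhesion molecules rose. Of 18 tested, 14 rose, 3 fell and 1 was not called with siEWSR1, and 12 rose, 2 fell and 4 were not called with siFLI1. Among all tested genes 33.2% rose with siEWSR1 and 35.7% with siFLI1. The median log2 changes of the list were 0.81 and 0.70, against 0.01 and 0.04 over all tested genes. At least 1 FPKM was the siNeg mean of 14 of the 18, and the others passed the filter through the knockdown groups, so these counts and medians are a description. LAMA4, the laminin chain to which MCAM binds, was at 46.1 and 49.5 FPKM with siEWSR1, 47.8 and 50.6 with siFLI1 and 2.79 and 3.38 with siNeg. The libraries did not overlap, and the log2 change was 3.76 ± 0.09 with siEWSR1 and 3.80 ± 0.09 with siFLI1 (limma adjusted p = 2.37e-06 and 1.49e-06). ICAM1, the leukocyte ligand, was at 4.70 FPKM with siEWSR1 and 5.87 with siFLI1, against 0.359 with siNeg. It passed the filter through the knockdown groups alone and had to be higher there. NECTIN2, a junction protein, fell to 30.6 FPKM with siEWSR1 and 31.4 with siFLI1, against 44.0 with siNeg. The stromal marker list moved in the same libraries, and its part in these changes was not tested.

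**Figure D2:**
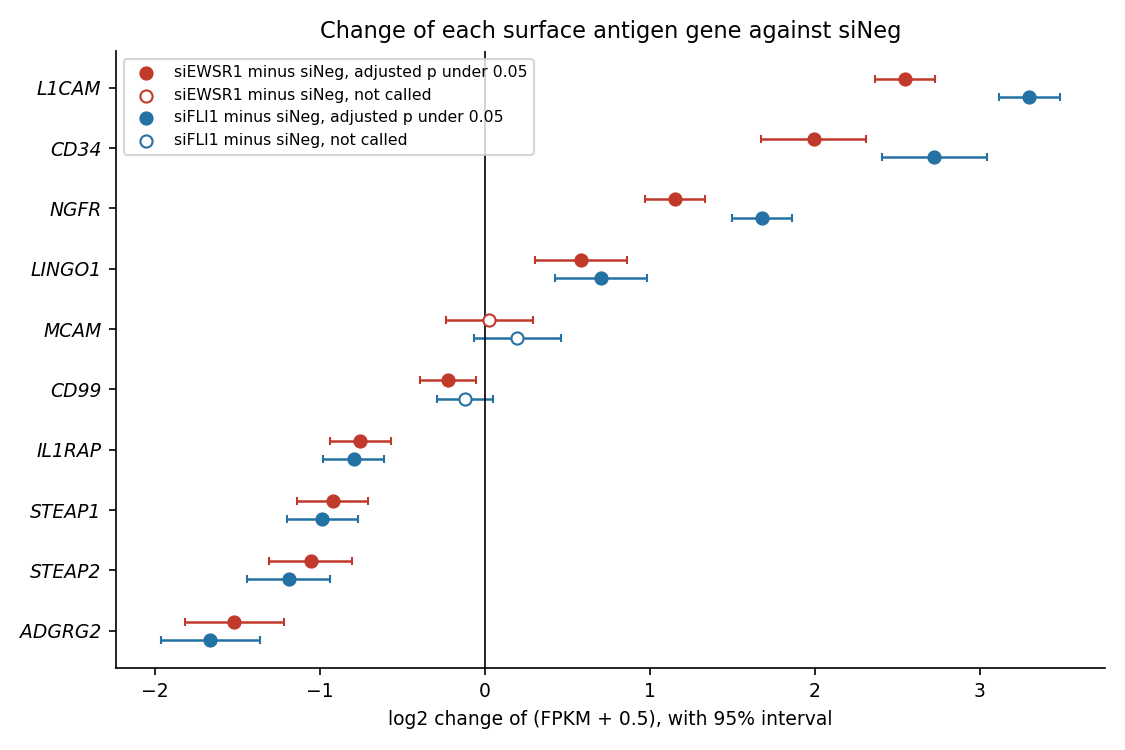
Change of each surface gene against siNeg (horizontal axis, log2 of FPKM + 0.5, with 95% interval) for siEWSR1 (red, upper) and siFLI1 (blue, lower); filled points passed the adjusted p of 0.05. The changes run from 3.30 for L1CAM with siFLI1 to -1.67 for ADGRG2 with siFLI1, and the intervals of MCAM cross 0.

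Other surface proteins studied as Ewing sarcoma markers or therapy targets were set beside the 10 genes. Of 32 tested among 42, 19 rose, 7 fell and 6 were not called with siEWSR1, and 20 rose, 7 fell and 5 were not called with siFLI1, with medians of 0.50 and 0.49. Of all tested genes 33.2% rose and 31.0% fell with siEWSR1, and 35.7% rose and 29.6% fell with siFLI1. At least 1 FPKM was the siNeg mean of 28 of these 32 genes, and the others passed the filter through the knockdown groups. TNFRSF21, a death receptor, reached 22.4 and 28.8 FPKM with siEWSR1 and 33.1 and 37.9 with siFLI1, against 1.22 and 1.17 with siNeg. Its log2 change was 3.94 ± 0.13 with siEWSR1 and 4.41 ± 0.13 with siFLI1 (limma adjusted p = 4.74e-06 and 2.71e-06). PDGFRA, a growth factor receptor of mesenchymal cells and a gene of the stromal list above, was at 9.17 FPKM with siEWSR1, 9.79 with siFLI1 and 0.323 with siNeg. CD24, a small mucin-like protein, was at 3.68 FPKM with siEWSR1, 7.56 with siFLI1 and 0.0753 with siNeg. PDGFRA and CD24 passed the filter through the knockdown groups alone and had to be higher there. Those with the lowest changes were the transporter SLCO5A1, at 8.70 FPKM with siEWSR1, 8.36 with siFLI1 and 24.5 with siNeg, the chemokine receptor CXCR4, at 28.9, 31.6 and 72.0 in the same order, and the receptor kinase KIT, at 14.1, 12.8 and 31.8.

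**Figure D3:**
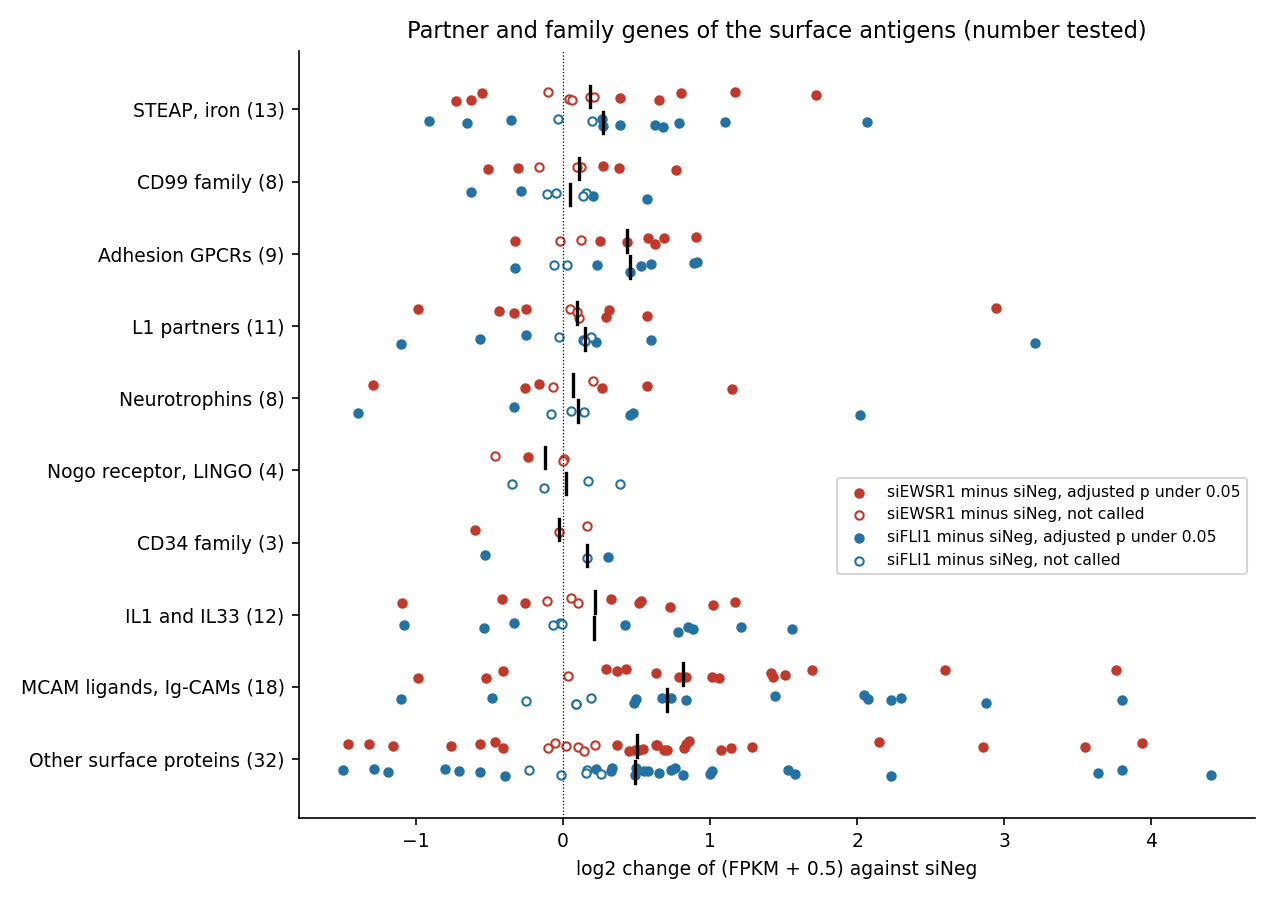
Each point is a tested gene of the list named at the left, placed by its log2 change of (FPKM + 0.5) against siNeg (horizontal axis), siEWSR1 in red above and siFLI1 in blue below; filled points passed the adjusted p of 0.05 and black bars are list medians. The MCAM ligand list has the highest medians, 0.81 with siEWSR1 and 0.70 with siFLI1, and points on both sides of 0 are found in each list.

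Ratios were taken between genes that fell and genes that rose, so that they had to shift and are a description, and CD99 makes up most of the sum. The summed FPKM of the 10 genes was 368 and 325 with siEWSR1, 386 and 371 with siFLI1 and 423 and 426 with siNeg. The ratio of NGFR to STEAP1 was 1.40 and 1.63 with siEWSR1, 2.20 and 2.39 with siFLI1 and 0.320 and 0.368 with siNeg. The ratio of ADGRG2 to NGFR was 0.933 and 0.748 with siEWSR1, 0.586 and 0.461 with siFLI1 and 6.05 and 5.14 with siNeg. ADGRG2 thus exceeded NGFR in both siNeg libraries and was below it in all 4 knockdown libraries. The ratio of LINGO1 to IL1RAP was 2.38 and 2.07 with siEWSR1, 2.55 and 2.45 with siFLI1 and 0.742 and 0.933 with siNeg.

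The siRNAs were also compared directly, siEWSR1 against siFLI1, which does not rest on a difference between calls. L1CAM, NGFR and CD34 were lower with siEWSR1 than with siFLI1, 3 of the 10 genes, and 0 of 10 were higher by limma, also at an unadjusted p under 0.05, where 3.07% of all tested genes were lower and 0.79% higher. Over all genes 103 were higher and 401 lower, a split that was 209 and 343 with quantile normalization and 159 and 354 with median-of-ratios scaling. The log2 difference was -0.76 (95% interval -0.94 to -0.57, limma adjusted p = 0.0125) for L1CAM, -0.53 (-0.71 to -0.34, adjusted p = 0.0258) for NGFR and -0.73 (-1.05 to -0.41, adjusted p = 0.0398) for CD34, with both siEWSR1 libraries below both siFLI1 libraries for each gene. CD24 (-0.94, limma adjusted p = 0.0279) was also lower with siEWSR1, a call that ended when any library other than siEWSR1 replicate 1 was left out. The L1CAM call ended with no filter on low values (limma adjusted p = 0.05) and without siFLI1 replicate 1 (0.0971) or siFLI1 replicate 2 (0.136). The NGFR call ended with no filter (0.0782), with only the 2 groups in the fit (0.0529), and without either siNeg library (0.0583 and 0.0577), siEWSR1 replicate 2 (0.0843), siFLI1 replicate 1 (0.103) or siFLI1 replicate 2 (0.179). The CD34 call ended with a pseudocount of 0.1 (0.0747), no filter (0.0987), median-of-ratios scaling (0.0519), the replicate block (0.0554), only the 2 groups in the fit (0.0798), and without either siNeg library (0.0881 and 0.0878), siEWSR1 replicate 1 (0.0614), siFLI1 replicate 1 (0.181) or siFLI1 replicate 2 (0.216). All kept their sign in those fits. The 4 genes that fell with both siRNAs differed by 0.04 to 0.14 on the log2 scale between them and were not called, with 95% intervals of -0.15 to 0.28 for STEAP1, -0.12 to 0.39 for STEAP2, -0.16 to 0.45 for ADGRG2 and -0.14 to 0.22 for IL1RAP. The intervals were -0.27 to 0.07 for CD99, -0.40 to 0.16 for LINGO1 and -0.44 to 0.10 for MCAM.

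**Figure D4:**
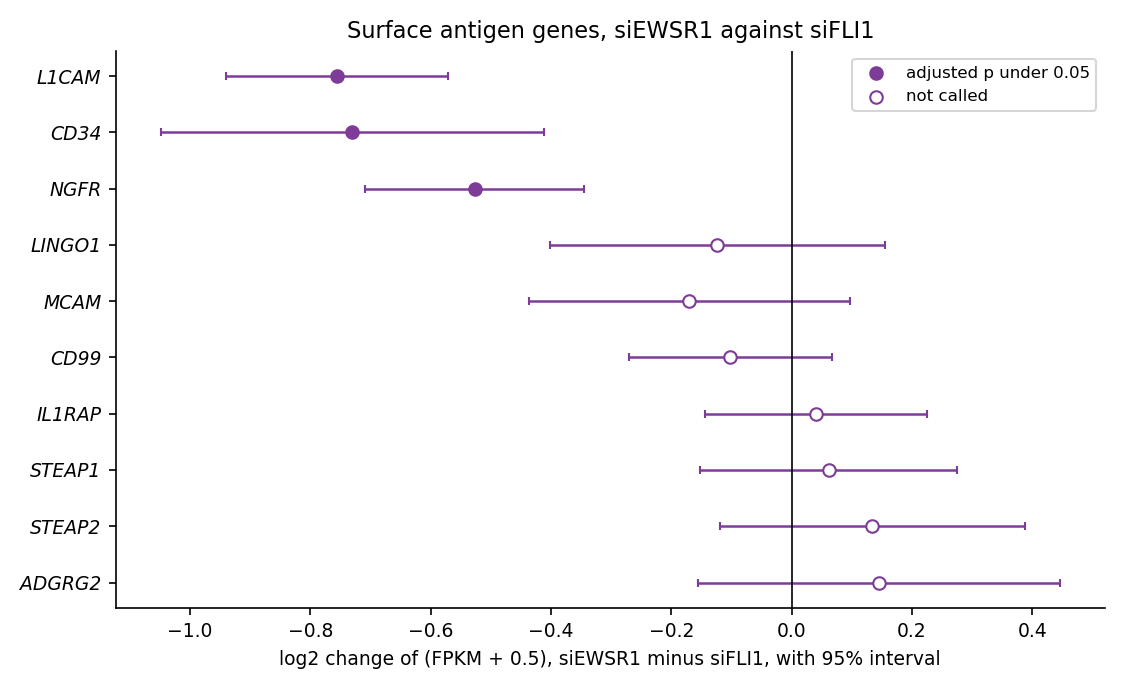
Difference between siEWSR1 and siFLI1 for each surface gene (horizontal axis, log2 of FPKM + 0.5, siEWSR1 minus siFLI1, with 95% interval); filled points passed the adjusted p of 0.05. L1CAM (-0.76), CD34 (-0.73) and NGFR (-0.53) lie left of 0, and the other intervals cross it.

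The genes whose profile over the 6 libraries was most like each surface gene were sought by the Euclidean distance between log2(FPKM + 0.5) values centred on their own mean. For STEAP1 these were HOXC10 (distance 0.054) and WDHD1 (0.068), for STEAP2 SHCBP1 (0.091) and DENND2C (0.111), for ADGRG2 CIT (0.074) and PLK1 (0.104), and for IL1RAP CNTN6 (0.049) and THOC2 (0.063). PLK1, a mitotic kinase gene, was at 47.4 FPKM with siEWSR1, 44.5 with siFLI1 and 135.7 with siNeg. For L1CAM they were CEMIP (0.093) and SPHK1 (0.146), for NGFR RHOBTB1 (0.092) and NDP (0.101), for CD34 CILP (0.191) and TPM1 (0.220), and for LINGO1 FBXW5 (0.073) and UBAP1L (0.080). For CD99 they were PSMA7 (0.040) and RANGRF (0.055), and for MCAM TMEM53 (0.063) and CHST14 (0.066). Among the surface genes themselves, STEAP1 was nearest to STEAP2 (0.217) and then to IL1RAP (0.236), while L1CAM and CD34 lay 0.721 apart. A small distance says that the levels moved alike in these 6 libraries, which share line, time and depth.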

How the data were processed

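RNA-seq was made from 6 libraries of TC32 cells in 3 groups of 2, grouped by the labelled siRNA. The authors deposited gene-level FPKM values with lower and upper bounds. Per the submitters' processing notes, the tools were TopHat2 2.0.13, Cufflinks and Cuffdiff, on hg19. The sources used here give neither annotation nor strand setting, nor the handling of reads with several matches. Strand being unknown, reads of overlapping or antisense genes cannot be told apart, and reads of near-identical genes may be divided between them. Because FPKM is scaled to the library, a change in the most abundant RNAs can move the values of other genes.

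Each table held 27442 rows for 26931 symbols, and the rows of 380 symbols on several rows were summed. Starts were converted to count from 1. Reading the deposited bounds as 2 standard errors on each side gives the implied fragment totals. The bounds cover counting error and the assignment of fragments, not the spread between cultures. Values were tested as log2(FPKM + 0.5) in limma 3.58.1 (R 4.3.3) with a variance trend, all 6 libraries in 1 fit, two-sided, Benjamini-Hochberg over 13043 genes with at least 1 FPKM in at least 2 libraries. Fold changes are on that scale, which understates the change of low genes. The fit was tested on simulated data before use.

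The 10 surface genes are named whatever their values. From each partner list come the 2 highest and the 2 lowest called changes per siRNA, of which most are printed and some are not reported here, and for likeness the 2 nearest genes. The members, lists and rules were chosen with earlier results of these data known. Promoter windows and their motif counts come from RefSeq tables of GRCh38.p14, by symbol, and coordinates of genes from the deposited tables on hg19. NGFR is named only. The 18 alternatives covered the pseudocount, the filter on low values, scaling, the variance model, the replicate block, rows per symbol, overlapping genes, the groups in the fit and each library left out.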

Additional observations from a re-analysis of the deposited data

Results flagged for a closer look

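Of the surface genes, 3 differed between the siRNAs in the direct limma test. Its difference is taken between the siRNA groups, but its spread is estimated from all 6 libraries, siNeg included. As given above, each of these calls ended in some refits. The log2 difference, siEWSR1 minus siFLI1, was -0.76 for L1CAM, with 4.47 ± 0.195 FPKM in siEWSR1 cells and 7.90 ± 0.188 in siFLI1 cells (SD, n = 2 each). It was -0.53 for NGFR, with 22.3 ± 0.466 FPKM in siEWSR1 cells and 32.3 ± 2.30 in siFLI1 cells, and -0.73 for CD34, with 1.68 ± 0.347 and 3.10 ± 0.107 FPKM in the same order. All are genes that rose with both siRNAs against siNeg, by more with siFLI1, and both siEWSR1 libraries lay below both siFLI1 libraries. EWSR1 averaged lower in siEWSR1 cells and FLI1 lower in siFLI1 cells, and the part of knockdown strength in these differences was not tested.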

How the results depend on the processing

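Against siNeg, 8 of the 10 genes kept their direction and call with both siRNAs in those of the 17 refits that tested them. Under quantile normalization the siEWSR1 change of CD99 was 0.0014 and that of MCAM -0.22, and the siFLI1 change of MCAM -0.088. Without 1 library, the siEWSR1 change of MCAM ranged from -0.085 to 0.14. Counts of surface genes called higher against siNeg, 4 with each siRNA, fell to 1 with each when genes that overlap another listed gene were left out, and to 2 with each at a mean of at least 5 FPKM, where fewer genes are tested. Between the siRNAs, 504 genes were called, 88 with no filter on low values, 825 with a robust variance trend, 319 with the replicate block, 111 with only the groups compared, and 5 (without siFLI1 replicate 2) to 593 (without siEWSR1 replicate 1) without 1 library, where the lone sample is assumed to vary like the other groups. The 3 surface genes lower with siEWSR1 became 1 without overlapping genes, 0 with no filter, 1 at the mean of at least 5 FPKM, 1 with only the groups compared, and 0 to 2 without 1 library. Differences that were not called changed sign for CD99 under quantile normalization (0.04995), and without 1 library ranged from -0.066 to 0.19 for STEAP1, -0.032 to 0.32 for ADGRG2, -0.019 to 0.10 for IL1RAP and -0.28 to 0.037 for LINGO1. Other causes were not tested.

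Same-numbered libraries showed little shared shift: their deviations correlated at -0.14 (siEWSR1 and siNeg), -0.05 (siFLI1 and siNeg) and 0.07 (siEWSR1 and siFLI1). The labels do not say whether they were made together, and these correlations cannot show it. With the replicate block, 4242 genes rose and 3948 fell with siEWSR1, 4530 rose and 3777 fell with siFLI1, and 57 were higher and 262 lower between the siRNAs. With 2 libraries per group, only spread seen in 2 values per gene and shared across genes sets the tests, and levels near 0 in siNeg (CD34, L1CAM) limit their fold changes.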
